A study of Mus musculus with 28 samples.

Results

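The comparison described here is between microglia of APPPS1 mice with and without an astrocytic Cre recombinase, in 9 of the 28 libraries of the series. The Cre-positive libraries came from mice 443, 458, 460 and 475, of genotype APPPS1::APOE4fl/fl::ALDH1L1-CreERT, and the Cre-negative libraries from mice 439, 447, 469, 774 and 779, of genotype APPPS1::APOE4fl/fl. APPPS1 mice carry human transgenes that lead to amyloid plaques, and all mice of both groups carry human APOE4 flanked by loxP sites (APOE4fl/fl). CreERT is driven by the promoter of Aldh1l1, an astrocyte gene, so the recombination was aimed at astrocytes and not at the microglia measured here. The treatment note, which is the same for every sample and does not separate Cre-negative mice, gives 2 intraperitoneal doses of tamoxifen at 100 mg per kg. The mice were 3.8 months old, and sorting followed 10 days after the drug. Microglia were sorted with an antibody against CD11b and astrocytes with one against ACSA-2, from cortex, hippocampus and thalamus of the same 14 mice. The labels give 5 mice in each APPPS1 group, whereas the series text gives 4. Mouse 459, labelled APPPS1 Cre-positive, was left out because each of its libraries held the genes of the other sort. Amyloid-free Cre-positive mice (22 and 26) and Cre-negative mice (465 and 759) shared the model fit, and entered the side-by-side values and the test of whether the Cre difference changed with amyloid.

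Microglia are the resident macrophages of the brain. Around amyloid plaques they take up a state known as disease-associated microglia, in which the lipid receptor TREM2 and its adaptor TYROBP take part, homeostatic genes go down and genes of lysosomes and lipid handling go up. APOE is a lipid carrier made mainly by astrocytes and also by such activated microglia, and its APOE4 form is the main common genetic risk factor for late-onset Alzheimer's disease.

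The 9 libraries held 35396475 to 57950591 counts. The 16 microglia identity genes averaged 11.21 to 11.25 log2 CPM (counts scaled to a common library total, on a log2 scale) in Cre-positive and 11.24 to 11.38 in Cre-negative libraries, and the 16 astrocyte markers averaged -0.33 to 0.11 and -0.45 to 1.24. Of those markers 13 were negative in the comparison, beside 52% of all genes, at a median log2 fold change of -0.80. At an unadjusted p under 0.05, 4 of them were lower, beside 2.35% of all genes, and none passed after adjustment. These were Slc6a11, Gpr37l1, Aqp4 and Ntsr2, all near the floor, at no more than 0.214, 2.33, 1.28 and 0.65 CPM in any of the 9 libraries. Their summed level was 275.7 to 335.1 CPM in Cre-positive and 276.7 to 335.0 CPM in Cre-negative libraries. Most of that sum came from Slc1a3 (155 to 215 and 137 to 220 CPM) and S1pr1 (96.0 to 114 and 81.8 to 150 CPM). It therefore says little of the other members. No member of that astrocyte list was at 0 in all 9 libraries, and Slc4a4, Slc6a11, Ntsr2 and Cldn10 stayed below 1 CPM in each. The X-inactivation transcript Xist was present in all 9, at 82.0 to 216.2 CPM. Where nothing else is said, a value is in CPM, an error of a level is an SD, an error of a log2 fold change is a standard error, and a fold change is Cre-positive over Cre-negative. In bulk sorts of this kind, fewer cells of a type and less RNA per cell cannot be told apart.

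Of 17593 mouse genes tested, 1 passed the threshold of an adjusted p under 0.05 (0.00568% of those tested). It was Zfp868, a zinc finger gene, and it was higher in Cre-positive microglia. No gene was lower in edgeR or limma voom, and 3 were lower in DESeq2. Without adjustment, 616 genes (3.5%) had a p under 0.05, 202 higher (1.15%) and 414 lower (2.35%). The median log2 fold change over all genes was -0.01. Of the 8626 genes with a mean of at least 3 log2 CPM, 8228 (95.4%) had a 95% interval of the log2 fold change that lay within 1 in either direction, against 59.5% of all genes tested. For most well-expressed genes a doubling thus lay outside the interval.

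Sequences of the genes that lead the comparison are given first, read from RefSeq tables of GRCm38.p6. The 250 bases before the start of Zfp868 (chr8:69625549-69625798, minus strand) are shown because it was the gene that passed, and capitals mark CCAAT, the binding letters of the factor NF-Y. CCAAT, searched on both strands, stood at 2 places here, and 34.2% of 27025 promoters of the same length held it.
Zfp868: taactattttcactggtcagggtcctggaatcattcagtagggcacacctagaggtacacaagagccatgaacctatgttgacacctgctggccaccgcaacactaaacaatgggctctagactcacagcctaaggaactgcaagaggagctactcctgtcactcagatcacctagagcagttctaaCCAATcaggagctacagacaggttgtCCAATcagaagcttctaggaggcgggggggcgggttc
Upstream bases of the chemokine genes Cxcl1 (chr5:90890995-90891244, plus strand) and Cxcl10 (chr5:92348890-92349139, minus strand) are shown because these were the chemokines with the lowest p. Capitals mark matches to the 10-base kappaB consensus, the site of the inflammatory transcription factor NF-kappaB, searched on both strands.
Cxcl1: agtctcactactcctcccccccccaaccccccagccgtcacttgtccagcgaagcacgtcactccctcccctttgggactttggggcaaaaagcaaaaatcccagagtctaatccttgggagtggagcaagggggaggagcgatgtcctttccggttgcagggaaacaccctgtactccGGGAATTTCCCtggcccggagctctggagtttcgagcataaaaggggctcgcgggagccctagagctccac
Cxcl10: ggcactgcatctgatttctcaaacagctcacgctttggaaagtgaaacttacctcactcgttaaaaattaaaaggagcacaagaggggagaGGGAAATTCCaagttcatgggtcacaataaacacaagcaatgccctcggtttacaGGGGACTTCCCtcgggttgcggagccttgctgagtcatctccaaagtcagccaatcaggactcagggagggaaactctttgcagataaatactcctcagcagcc
Matches overlap in the capitals of both promoters, with 2 in Cxcl1 and 3 in Cxcl10. The consensus was found in 7.07% of all promoters, in 7 of the 17 cytokine and chemokine promoters in the table and in 5 of the 13 antigen presentation promoters. No match was found before the starts of Il1b, Il12b and Mir155hg.
The mature miRNA encoded in the host gene Mir155hg (chr16:84714143-84714165, plus strand) is shown with its seed, bases 2 to 8, in capitals, because Mir155hg had the lowest p of all genes off chromosome 8. The counts are of the host transcript, and the miRNA itself was not measured.
mmu-miR-155-5p: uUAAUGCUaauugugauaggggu

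Zfp868 (ENSMUSG00000060427, chr8:69610857-69625548 in GRCm38, minus strand) encodes a zinc finger protein and lies in a cluster of related zinc finger genes, among which reads of similar sequence could be divided. It stood at 121, 109.6, 72.2 and 74.5 CPM in the Cre-positive microglia of mice 443, 458, 460 and 475, against 19.96, 22.5, 19.0, 18.7 and 18.5 CPM in the Cre-negative microglia of mice 439, 447, 469, 774 and 779. The lowest Cre-positive library was above the highest Cre-negative one by a wide margin, and the Cre-negative libraries lay close together. The means were 94.3 ± 24.7 CPM (n = 4) and 19.7 ± 1.65 CPM (n = 5), a log2 fold change of 2.26 ± 0.17 with a 95% interval of 1.89 to 2.62 (edgeR quasi-likelihood test, adjusted p = 4.4e-05).

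The other libraries of the series gave the same direction. In amyloid-free microglia, which come from other mice, Zfp868 was at 114.4 and 80.8 CPM in Cre-positive mice 22 and 26, against 25.12 and 28.04 CPM in Cre-negative mice 465 and 759 (log2 fold change 1.88 ± 0.26, adjusted p = 0.039). In the astrocytes of the same 9 APPPS1 mice it was at 99.3, 135.6, 104.1 and 125.8 CPM in Cre-positive mice, against 38.3, 33.5, 19.9, 20.2 and 27.1 CPM in Cre-negative mice (2.06 ± 0.19, adjusted p = 0.0013). Amyloid-free astrocytes held 166.7 and 134.2 CPM with Cre, against 25.2 and 26.7 CPM without it (2.54 ± 0.28). In none of the 4 pairs of groups did Cre-positive and Cre-negative libraries overlap. The share of all genes that passed was 0.0114% in amyloid-free microglia and 0.00997% in APPPS1 astrocytes. The difference of the Zfp868 fold change between APPPS1 and amyloid-free microglia was 0.38 on the log2 scale and did not pass. All mice of these groups carry APOE4fl/fl, and only the Cre-positive ones carry ALDH1L1-CreERT. Carrying that transgene and losing astrocytic APOE4 therefore cannot be told apart in any of the pairs, for Zfp868 or any other gene.

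**Figure D1:**
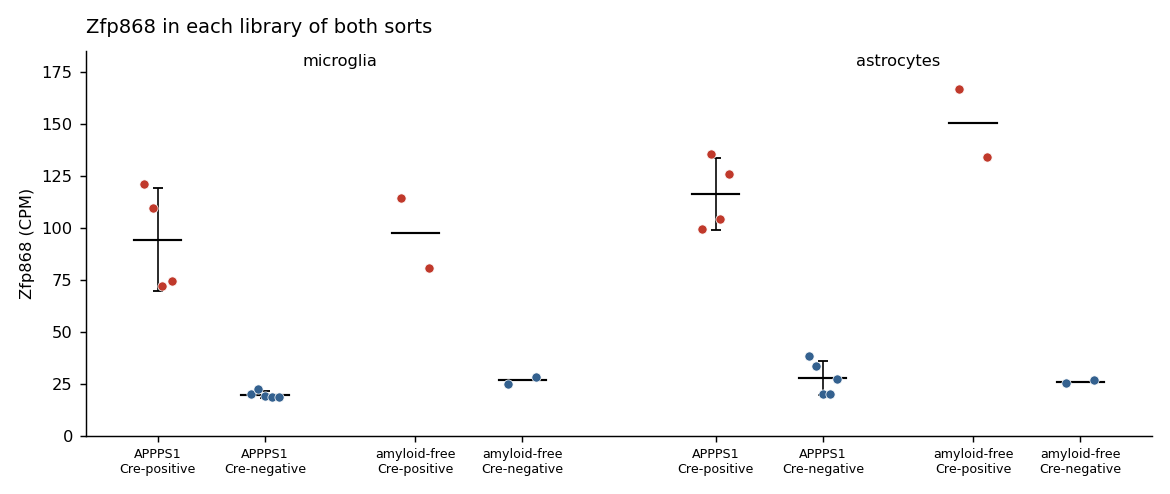
Zfp868 in CPM (y axis, linear) in each library of 8 groups (x axis), with Cre-positive left of Cre-negative in each pair; points are mice, horizontal bars means, and error bars SD where a group has more than 2 mice. All Cre-positive libraries, from 72.2 CPM up, sit above all Cre-negative libraries, which reach at most 38.3 CPM.

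Genes around Zfp868 on chromosome 8 also stood out at the unadjusted level. Within 500000 bases of it, 26 other genes were annotated and 22 were tested, of which 6 had an unadjusted p under 0.05, 4 of them higher and 2 lower, beside 3.5% of all genes and 4.01% of the genes beyond 1 Mb on the chromosome. None passed after adjustment. Of the 22, 9 were positive. Within 1 Mb, a window chosen after the values were seen, 7 of 51 genes, Zfp868 included, had a p under 0.01 (13.7%), against 4 of the 848 genes farther along the chromosome (0.472%) and 0.551% of all genes tested. The 4 were Bst2 and, named after their values were seen, Adgrg5, Dlgap2 and Nwd1. Dlgap2 and Nwd1 stayed below 1 CPM. Adgrg5, 25.3 Mb away, was at 27.5 CPM in Cre-positive mice 458 and 460 and at 0.968 and 0.286 CPM in mice 443 and 475. Cre-negative microglia held 0.475 to 3.58 CPM of it. In amyloid-free microglia Adgrg5 was at 17.8 and 31.7 CPM with Cre and at 0.6645 and 0.514 CPM without it.

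Lpar2, a receptor for lysophosphatidic acid 196.9 kb away, stood at 1.08, 1.01, 1.815 and 2.48 CPM in Cre-positive microglia and at 0.119, 0.216, 0.601, 0.107 and 0.535 CPM in Cre-negative microglia, without overlap, and had a log2 fold change of 2.33 ± 0.56. Lzts1, a leucine zipper protein 426.6 kb away on the other side, stood at 7.29, 7.11, 5.11 and 7.36 CPM with Cre and at 3.605, 2.74, 3.945, 2.84 and 3.601 CPM without it (1.01 ± 0.23). Mau2, a cohesin loader subunit 390.6 kb away, was at 80.3, 73.4, 69.7 and 57.2 CPM with Cre and at 54.8, 48.0, 55.7, 50.3 and 41.9 CPM without it (0.48 ± 0.14). In all 3 genes each Cre-positive library was above each Cre-negative one, as in 0.546% of all genes tested, and each had an adjusted p of 1.

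Borcs8 and Armc6, 514 and 594.6 kb away, had the same form, again with adjusted p-values of 1. Borcs8, a subunit of a complex that positions lysosomes, was at 23.7 to 27.0 CPM in Cre-positive and 8.71 to 18.95 CPM in Cre-negative microglia (0.71 ± 0.20), and Armc6 was at 7.82 to 13.1 CPM and 4.87 to 7.50 CPM (0.77 ± 0.20). Slc18a1, a vesicular monoamine transporter 521.6 kb away and named after its values were seen, was low at 0.915 to 1.88 CPM in Cre-positive and 0.130 to 0.342 CPM in Cre-negative microglia (2.45 ± 0.43, adjusted p = 0.432). The genes between these went both ways, with Gmip at -0.44 ± 0.16, Zfp869 at -0.20 ± 0.17 and Zfp963 at 0.58 ± 0.23.

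Values for the same genes in the other libraries were uneven. In amyloid-free microglia the log2 fold change was 0.82 ± 0.21 for Mau2, 1.01 ± 0.31 for Borcs8, 0.87 ± 0.34 for Lzts1, 1.76 ± 0.84 for Lpar2, 3.25 ± 0.65 for Slc18a1 and 0.30 ± 0.31 for Armc6, none past the threshold. In astrocytes of the APPPS1 mice, Mau2 stood at 91.3 to 136.4 CPM with Cre and 55.8 to 74.7 CPM without it (0.90 ± 0.14, adjusted p = 0.0546), and Slc18a1 at 0.928 to 2.12 CPM and 0 to 0.280 CPM. Lzts1 and Borcs8, in contrast, differed in astrocytes by -0.17 ± 0.19 and 0.09 ± 0.19.

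**Figure D2:**
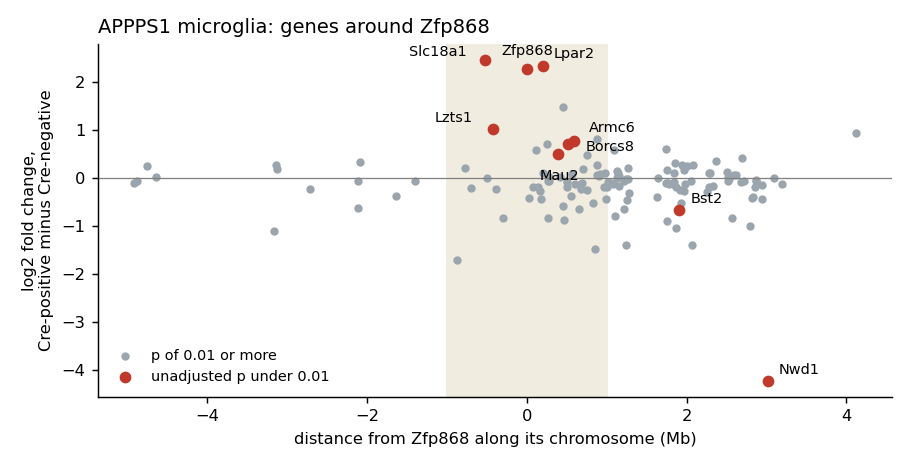
Log2 fold change, Cre-positive minus Cre-negative (y axis), of genes within 5 Mb of Zfp868 in APPPS1 microglia, against distance along the chromosome in Mb (x axis); red points have an unadjusted p under 0.01 and the shaded band spans 1 Mb on either side. The 7 red points in the band are all positive, from 0.48 for Mau2 to 2.45 for Slc18a1, while most grey points lie near 0.

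The targeted gene was checked in both sorts. Human APOE counts, scaled to the mouse gene total, were 827.2, 553.1, 594.2 and 507.4 CPM in Cre-positive astrocytes, against 1864, 1394, 1601, 1273 and 1473 CPM in Cre-negative astrocytes. The groups did not overlap, and the means were 620.5 ± 142.3 and 1521 ± 226 CPM, a ratio of 0.408 (exact two-sided permutation test, p = 0.00794, the smallest this design allows, and 0.0238 adjusted over 3 tests). Human APOE was therefore lower but still present in Cre-positive astrocytes.

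In the microglia of the same mice the mean of human APOE was higher with Cre, but the difference did not pass its test. It was at 327.8, 1008, 1050 and 738.3 CPM in Cre-positive and at 110.1, 468.2, 180.1, 814.8 and 590.9 CPM in Cre-negative microglia, with overlapping groups. The means were 781.0 ± 332.2 and 432.8 ± 291.6 CPM (log2 difference 1.07, exact permutation p = 0.183, adjusted p = 0.274). In amyloid-free microglia it was at 99.8 and 77.5 CPM with Cre and at 71.8 and 102.4 CPM without it. Mouse Apoe counts moved with those of human APOE from mouse to mouse, at 105.8, 254.9, 353.0 and 175.1 CPM in Cre-positive and 45.9, 124.3, 44.5, 213.2 and 183.7 CPM in Cre-negative microglia (0.86 ± 0.45, adjusted p = 1). The labels do not say how reads that match the genes of both species were assigned, so the 2 genes may share reads. Human APP, part of the transgene, was at 0.806 to 8.63 CPM in Cre-positive and 1.85 to 4.23 CPM in Cre-negative microglia (exact permutation p = 0.960), mouse App differed by 0.15 ± 0.13, and Aldh1l1, the gene whose promoter drives Cre, was at 1.18 to 2.82 CPM and 0.481 to 2.75 CPM.

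**Figure D3:**
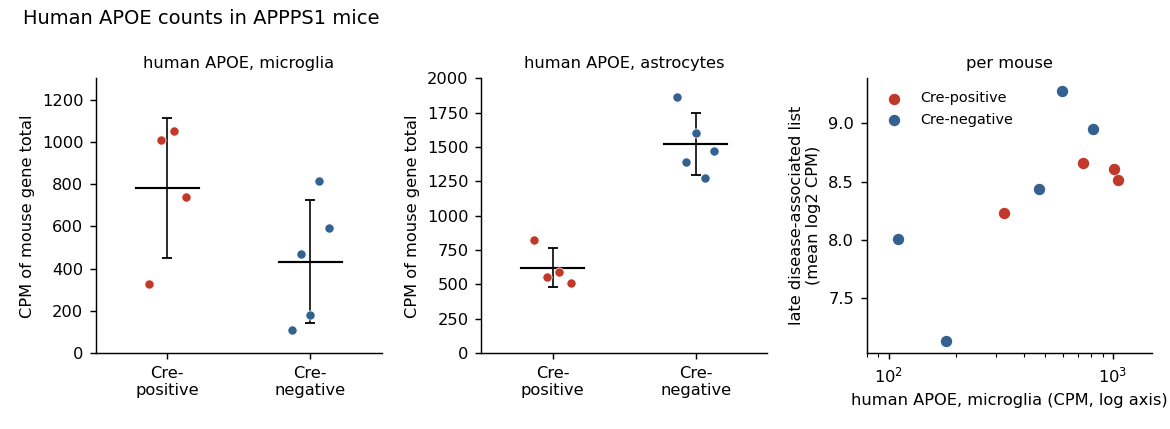
Human APOE in CPM of the mouse gene total (y axes of the left and middle panels, linear) in microglia and astrocytes of APPPS1 mice, with means and SD, and, in the right panel, the mean log2 CPM of the late disease-associated list (y axis) against human APOE in microglia (x axis, log scale); points are mice. Cre-positive astrocytes lie at 507.4 to 827.2 CPM, all below the Cre-negative ones, while the microglia groups overlap.

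No gene of the disease-associated state passed in either direction. Of the 28 late disease-associated genes tested, 11 were positive and 17 negative, at a median of -0.06, beside -0.01 and 48% positive over all genes. None had an unadjusted p under 0.05, and 16 of the 28 had an interval within 1. The early genes had 6 of 8 members positive, with a median of 0.04.

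Cst7, a cystatin that marks the state, stood at 1043, 1478, 1303 and 1433 CPM in Cre-positive microglia, against 662.0, 1408, 251.5, 1932 and 2709 CPM in Cre-negative microglia. The Cre-positive libraries lay within the Cre-negative range, whose lowest (mouse 469) and highest (mouse 779) values set its width. The log2 fold change was -0.08 ± 0.45 with an interval of -1.05 to 0.88, which includes a difference of 1 toward lower levels. For Trem2 it was -0.17 ± 0.22 (-0.64 to 0.30), for Tyrobp -0.01 ± 0.24 (-0.52 to 0.50), for the beta-glucan receptor Clec7a 0.04 ± 0.44 (-0.90 to 0.98) and for the integrin Itgax -0.37 ± 0.40 (-1.23 to 0.48). The list mean ran from 8.23 to 8.66 log2 CPM in Cre-positive and from 7.14 to 9.28 in Cre-negative mice.

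For scale, the contrast of APPPS1 with amyloid-free Cre-negative microglia, which shares the Cre-negative APPPS1 libraries, gave a median of 2.25 over the late list, with 7.25 for Cst7 and 3.06 for Itgax. The lysosome list (13 of 28 positive, median -0.02, 27 intervals within 1) and the TREM2 signalling list (6 of 15 positive, median -0.08, 14 within 1) were likewise near 0. In the TREM2 list Card9, a signalling adaptor, was at -0.58 ± 0.21, and Vav1, a guanine nucleotide exchange factor, at -0.31 ± 0.14.

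Homeostatic microglia genes were negative in 20 of 25 cases, beside 52% of all genes, at a median of -0.15. With the astrocyte marker mean as a covariate the direction turned, at a median of 0.02, and without mice 469 and 458 in turn the median was -0.01 and -0.05. All 25 intervals lay within 1, and 1 member was lower at an unadjusted p under 0.05, beside 2.35% of all genes. That member, the fructose transporter Slc2a5, was at 708.0, 433.4, 476.8 and 565.4 CPM in Cre-positive and at 662.7 to 925.9 CPM in Cre-negative microglia (-0.51 ± 0.23). The purinergic receptor P2ry12 was at -0.01 ± 0.21, Tmem119 at -0.28 ± 0.20 and the fractalkine receptor Cx3cr1 at -0.24 ± 0.17.

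Across the 9 mice, the late disease-associated list mean and human APOE counts in microglia had Pearson's r = 0.71 and Spearman's rho = 0.67 (exact permutation p = 0.0318 and 0.0589, adjusted over 4 relations 0.127 and 0.236). Without mice 469 and 779, the farthest from the median of the list, r was 0.83, and with each group centred on its own mean it was 0.75. For the cell cycle list r was 0.53 (exact permutation, adjusted p = 0.29) and 0.26 without its 2 farthest mice. For the cytokine list r was 0.13, against -0.73 with each group centred, and for the astrocyte markers it was -0.19, so neither relation held its sign between the pooled and centred values. None of the 4 passed after adjustment.

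By count but not by share, the list with the most members at a low p was that of cytokines and chemokines. It holds secreted signals of inflammatory microglia and also the enzyme gene Ptgs2. Of 25 members, 21 were positive, beside 48% of all genes, at a median of 0.34. Of these, 7 had an unadjusted p under 0.05 and none passed after adjustment (1.15% of all genes were higher at that p). In 5 members every Cre-positive library was above every Cre-negative one, beside 0.546% of all genes. The list mean was 5.47, 5.32, 5.49 and 5.57 log2 CPM in the Cre-positive mice 443, 458, 460 and 475. In the Cre-negative mice 439, 447, 469, 774 and 779 it was 5.28, 4.87, 4.93, 4.83 and 4.84, without overlap. The lists were chosen with earlier results of these data known, and of their 31 means only that of this list separated the groups. Without mouse 475 the median log2 fold change of the list was 0.17. Mouse 439, the highest Cre-negative mouse, was also the highest in monocyte and neutrophil markers, at 7.565 log2 CPM, against 5.09 to 6.10 in Cre-positive and 3.52 to 5.03 in the other Cre-negative mice. The part of that marker difference in the result was not tested.

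Cxcl1, which attracts neutrophils, was at 18.2, 22.5, 38.8 and 32.4 CPM in Cre-positive microglia and at 12.7, 12.4, 7.72, 9.19 and 21.9 CPM in Cre-negative microglia. Only mouse 779 of the Cre-negative group reached into the Cre-positive range, and the log2 fold change was 1.13 ± 0.29 (0.51 to 1.75). Cxcl10, an interferon-induced chemokine for T cells, was at 25.3, 35.4, 35.1 and 45.4 CPM with Cre and at 18.5 to 24.5 CPM without it, with no overlap (0.72 ± 0.17). The upstream bases of both genes, printed above, hold the kappaB consensus.

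Among the interleukins, Il1b was at 258.5, 206.2, 335.6 and 305.2 CPM in Cre-positive microglia, against 183.7, 151.5, 114.9, 112.4 and 186.8 CPM in Cre-negative microglia, without overlap (0.88 ± 0.32). Il12b, the shared subunit of interleukins 12 and 23, was at 4.83 to 8.45 CPM and 2.07 to 3.50 CPM (1.12 ± 0.34). The anti-inflammatory Il10 was low, at 0.824 to 4.79 CPM and 0.08635 to 0.645 CPM (2.65 ± 0.86). The other 2 members at this level, named after their values were seen, were Cxcl2 (0.80 ± 0.34) and the prostaglandin synthase Ptgs2 (0.92 ± 0.37, with 29.4 CPM in mouse 460 and 8.58 to 11.4 CPM in the other Cre-positive mice). Tnf was at 0.56 on the same scale and Il6 at 0.36, whereas Il18, Ccl7 and Csf1 were at -0.01, -0.04 and -0.06.

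The NF-kappaB list had 15 of 20 members positive, beside 48% of all genes, and a median of 0.18 (0.03 without mouse 475, 0.11 without mouse 774 and 0.09 without mouse 779). At an unadjusted p under 0.05, 1 member was higher, beside 1.15% of all genes. This was Mir155hg, the host gene of miR-155, a miRNA induced in activated macrophages. It was at 11.4, 21.9, 14.1 and 14.2 CPM in Cre-positive microglia, against 6.57, 4.45, 5.32, 7.14 and 6.79 CPM in Cre-negative microglia, without overlap (1.35 ± 0.28, interval 0.75 to 1.94, adjusted p = 1). Of the transcription factor subunits, Rela was at -0.24 ± 0.15 and Rel at 0.33 ± 0.23. In amyloid-free microglia Mir155hg differed by -0.44 ± 0.42, and the difference between the contrasts did not pass.

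Immediate early genes, which the cell isolation itself can induce, had 15 of 24 members positive, beside 48% of all genes, and a median of 0.04. Their list mean overlapped between groups (7.08 to 7.61 log2 CPM in Cre-positive and 6.51 to 8.10 in Cre-negative mice). Of 28 type I interferon genes 12 were positive, with a median of -0.06, and Bst2, a membrane protein that retains viruses, was at -0.68 ± 0.21. Bst2 lies 1.91 Mb from Zfp868 on chromosome 8. In amyloid-free microglia it differed by -0.91 ± 0.32, not past the threshold. Toll-like receptor and inflammasome genes had a median of -0.003, with 18 of 18 intervals within 1, and complement genes a median of -0.10.

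**Figure D4:**
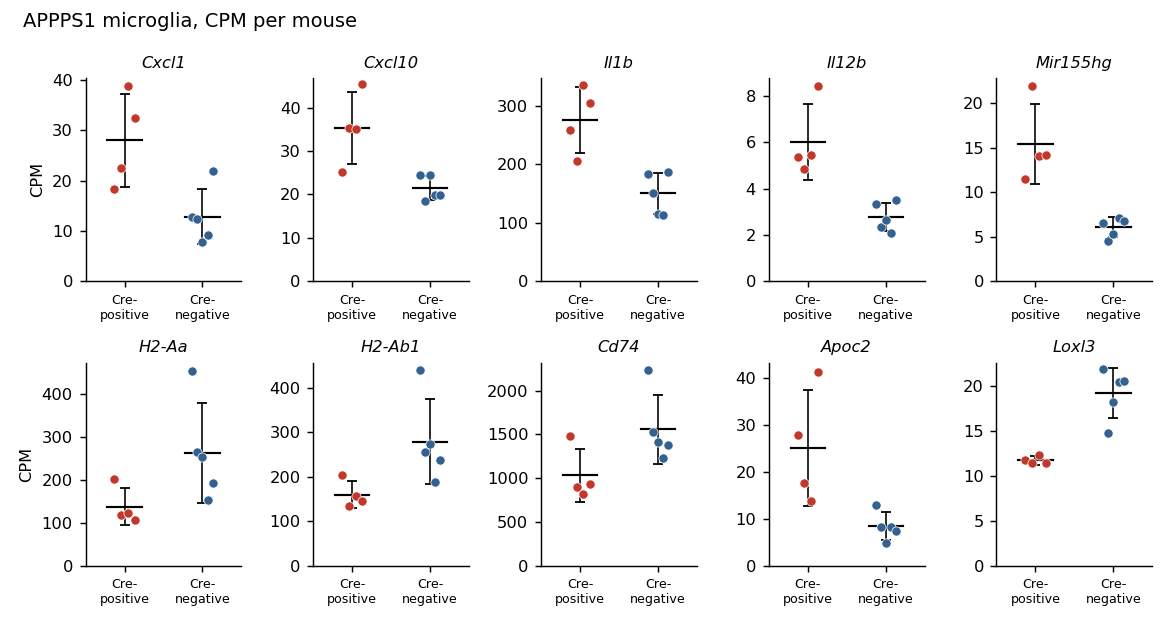
CPM (y axes, linear, from 0) of 10 genes in each APPPS1 microglia library, with Cre-positive left of Cre-negative; points are mice, horizontal bars means and error bars SD. Il1b, Cxcl10, Il12b, Mir155hg and Apoc2 separate upward in Cre-positive mice and Loxl3 downward, while Cxcl1, H2-Aa, H2-Ab1 and Cd74 overlap.

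Antigen presentation genes were negative in 16 of 20 cases, beside 52% of all genes, at a median of -0.16. All 6 members with an unadjusted p under 0.05 were lower (2.35% of all genes were lower at that p), none passed after adjustment, and no member separated the groups. The class II genes, whose products present peptides to helper T cells, led the list. H2-Aa was at 202.1, 118.0, 123.7 and 106.1 CPM in Cre-positive microglia, against 453.1, 263.8, 252.8, 152.3 and 191.4 CPM in Cre-negative microglia. Mouse 439 was the highest and the groups overlapped through mice 443, 774 and 779, with a log2 fold change of -0.93 ± 0.31 (-1.59 to -0.28).

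H2-Ab1 was at 203.9, 134.0, 156.2 and 146.0 CPM with Cre and at 440.0, 255.6, 273.1, 188.0 and 238.4 CPM without it (-0.80 ± 0.25). H2-Eb1 differed by -0.75 ± 0.26 and the invariant chain Cd74, at 820.7 to 1484 CPM and 1229 to 2238 CPM, by -0.59 ± 0.25. Ciita, the class II transactivator, named after its values were seen, was at 0.447 to 1.37 CPM with Cre and at 0.950 to 1.80 CPM without it apart from 6.45 CPM in mouse 439 (-1.38 ± 0.56). The peptide transporter Tap2 was at -0.49 ± 0.20, while the class I genes H2-K1 and B2m were at 0.03 and 0.08.

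Markers of lymphocytes, which include class II-expressing B cells, were negative in 8 of 10 cases, beside 52% of all genes, at a median of -0.19. Their summed level was 780.2 to 995.3 CPM in Cre-positive and 852.4 to 1187 CPM in Cre-negative libraries, and Cd3e, Cd79a and Ms4a1 were among 8 members below 1 CPM in every library. Markers of border macrophages, which also carry class II, had 8 of 11 members positive, beside 48% of all genes, and a median of 0.20. The scavenger receptor Cd163 was at 0.93 ± 0.32. Their summed level was 211.3 to 290.0 CPM in Cre-positive and 192.0 to 314.2 CPM in Cre-negative libraries, and the part of either cell type in the class II result was not tested.

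Of 25 members of the lipoprotein and efflux list, 14 were positive, beside 48% of all genes, at a median of 0.03. At an unadjusted p under 0.05, 2 were higher, beside 1.15% of all genes. Apoc2, an activator of lipoprotein lipase, was at 27.7, 17.5, 13.8 and 41.3 CPM in Cre-positive microglia, against 13.01, 8.31, 4.88, 8.33 and 7.45 CPM in Cre-negative microglia. The groups did not overlap, though mice 460 and 439 lay close, and the log2 fold change was 1.58 ± 0.41 (0.69 to 2.47). Apoc2 (chr7:19671579-19677941) lies near Apoe on chromosome 7, and Apoc1 lies beside Apoe. Apoc1 was at 5.35, 11.35, 7.43 and 4.804 CPM with Cre and at 0.698 to 4.49 CPM without it, without overlap (1.36 ± 0.43, adjusted p = 1). In astrocytes of the APPPS1 mice Apoc1 passed in the same direction (2.06 ± 0.22, adjusted p = 0.00279), and with Zfp868 it made up the 2 genes called there. The efflux transporter Abca1 was at 0.17 ± 0.23 and Abcg1 at 0.22.

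Cholesterol synthesis genes were negative in 22 of 24 cases, beside 52% of all genes, at a median of -0.16, and none passed after adjustment. Without mouse 779 the median was 0.01, on the other side of 0. Dhcr7, which makes the final step, was at 12.9 to 20.9 CPM in Cre-positive and 10.5 to 70.7 CPM in Cre-negative microglia (-0.87 ± 0.43, and -0.35 without mouse 779). The list mean overlapped, at 4.155 to 4.45 log2 CPM in Cre-positive and 3.91 to 5.125 in Cre-negative mice, with mice 774 and 779 highest.

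Of 26 cell cycle genes 22 were positive, beside 48% of all genes, with a median of 0.36, yet no member had an unadjusted p under 0.05. The list mean was 3.602, 3.62, 3.51 and 4.43 log2 CPM in Cre-positive and 3.54, 3.22, 2.29, 4.27 and 3.65 in Cre-negative mice. Mouse 475 was high and mouse 469 low, and the groups overlapped. The median log2 fold change was 0.10 without mouse 475, 0.18 without mouse 469, 0.53 without mouse 774 and 0.02 with the astrocyte marker mean as a covariate. Stmn1, a microtubule regulator, differed by 0.48 ± 0.25, and Top2a and Rrm2, a topoisomerase and a nucleotide reductase of dividing cells, by 0.51 ± 0.34 and 0.58 ± 0.38.

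**Figure D5:**
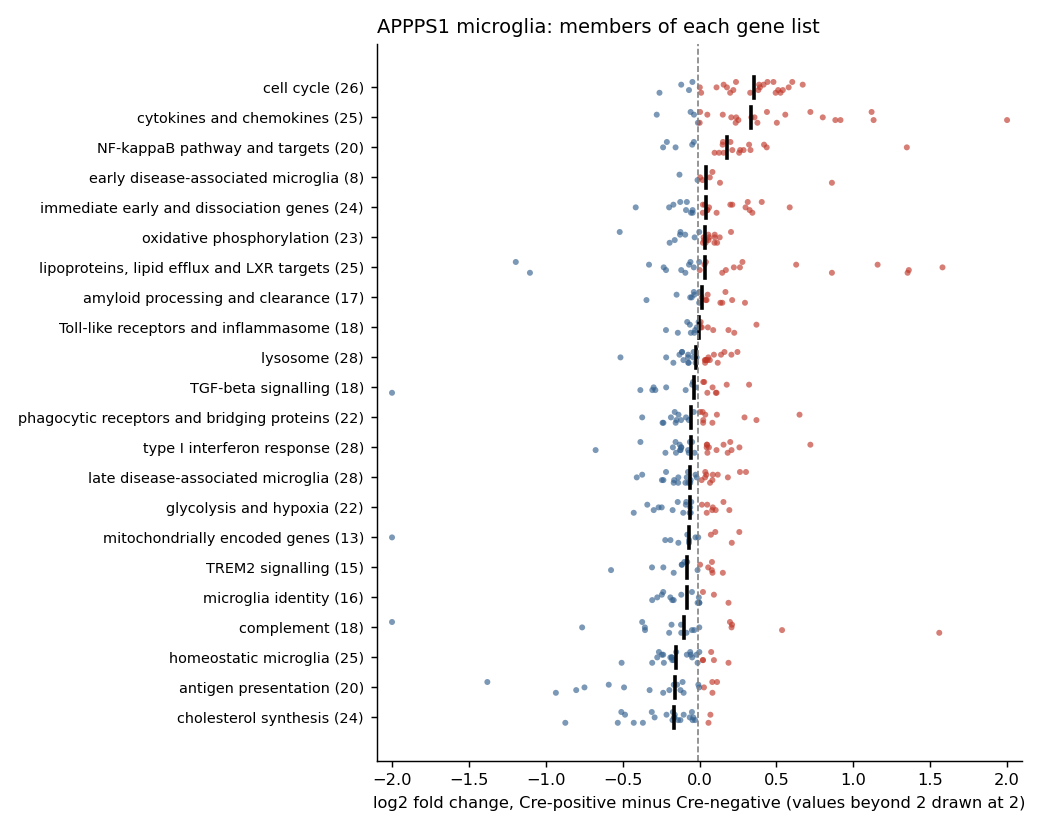
Log2 fold change, Cre-positive minus Cre-negative (x axis, values beyond 2 drawn at 2), of each tested member of 22 gene lists (rows, number tested in brackets); red points are positive and blue negative, black bars are list medians, and the dashed line is the median of all genes. Medians run from -0.16 for cholesterol synthesis to 0.36 for the cell cycle.

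Among genes with a mean of at least 3 log2 CPM, the lowest p on the lower side belonged to Loxl3. Loxl3, a lysyl oxidase, was at 11.8, 11.4, 12.4 and 11.4 CPM in Cre-positive microglia, against 21.9, 14.8, 18.3, 20.5 and 20.6 CPM in Cre-negative microglia. The Cre-positive values lay within a narrow band below all Cre-negative ones, as in 0.87% of all genes, and the log2 fold change was -0.71 ± 0.15 (adjusted p = 1). The interleukin 11 receptor gene Il11ra1 (-0.68 ± 0.18), the peptide hydrolase Apeh (-0.53 ± 0.14), Klhdc8b (-0.66 ± 0.19), the hexokinase Hk3 (-0.58 ± 0.17), Pigq (-0.50 ± 0.15), a subunit of an enzyme of GPI anchor synthesis, Slc10a3 (-0.55 ± 0.16), Wdr24 (-0.67 ± 0.20), a component of a complex upstream of mTORC1, and the zinc finger gene Zbtb48 (-0.58 ± 0.17) had the same form, each without overlap of the groups. All of these were picked by their low p, which itself favours groups without overlap, and none passed after adjustment in the main fit. On the higher side were Gpx3, a glutathione peroxidase (0.88 ± 0.26), and Phlda1 (0.66 ± 0.21), both with overlap.

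The mitochondrial gene mt-Nd3 stood apart in another way. It was at 2.47, 3.34, 3.02 and 2.05 CPM in Cre-positive microglia, against 2.17, 3.28, 41.8, 25.0 and 70.6 CPM in Cre-negative microglia. Mice 439 and 447 of the Cre-negative group had the level of the Cre-positive mice, so its log2 fold change of -3.39 ± 0.86 rested on mice 469, 774 and 779. The other mitochondrially encoded genes did not follow, with a list median of -0.07 and mt-Nd1 and mt-Nd2 at -0.14 ± 0.18 and -0.22 ± 0.19.

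Whether the Cre difference changed with amyloid was tested as an interaction in the same fit. No gene of 17593 passed (0%), with a lowest adjusted p of 0.084, and 1527 had an unadjusted p under 0.05. With limma voom 0 passed, with DESeq2 51, and without mouse 22 edgeR called 107. Both amyloid-free Cre-positive libraries stood apart from the rest. Their astrocyte markers were at 2.88 (mouse 22) and 2.67 (mouse 26) log2 CPM, against at most 1.83 in the other microglia of the fit. Microglia identity was at 10.1 in mouse 26. The interaction was 1.58 for Cxcl1, 1.78 for Mir155hg, -0.72 for H2-Ab1 and -1.94 for Apoc2 on the log2 scale, and the part of those libraries in these values was not tested.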

How the data were processed

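RNA of sorted microglia and astrocytes was sequenced per mouse, with SMARTer libraries of total RNA per the labels. The counts, unnormalized and given for each mouse and human gene in 1 deposited table, were made by the authors with bcl2fastq, STAR and featureCounts on GRCm38 and GRCh38, per the submitters' processing notes; strand settings were not found in the labels. Of 95966 rows, 258 gene IDs stood on more than 1 row and were kept once, which left 40481 mouse genes, 40340 of them with a position in GENCODE M21.

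Mouse genes were filtered by group and scaled with TMM in edgeR 4.0.16 (R 4.3.3), and 13 microglia libraries of 4 genotype groups, without mouse 459, shared 1 quasi-likelihood fit without covariates. The Benjamini-Hochberg method adjusted the p-values across every gene in the fit, with a threshold of 0.05. The fit pools the spread of groups of 2 to 5 mice. Standard errors came from the same fit, and the code was tested on simulated data. Human genes were scaled to the mouse gene total and compared on log2(CPM + 0.5) by exact permutation. The labels mention no molecular identifiers. Errors of levels are the spread between mice, and errors of log2 fold changes are standard errors of the fit. List levels used log2 CPM with a prior count of 2.

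The members and lists were chosen with earlier results of these data known, and the lists carry no test of their own. Genes named are the target genes, genes past the threshold, the 10 lowest p per direction with a mean of at least 3 log2 CPM (leaving out predicted genes, ribosomal protein genes and pseudogenes), the 4 lowest p of each list described, fixed examples and the neighbours of a called gene within 500000 bases. Exceptions are marked where they stand, and other list members without such a mark (Tnf, Rela or B2m, for example) were picked as examples after their values were seen. Alternatives were fits on the 9 libraries alone, with mouse 459, with DESeq2 (1.42.0) or its size factors, with limma voom (3.58.1), without the filter, with 1 surrogate variable (sva 3.50.0) or with astrocyte markers or Xist as a covariate, and without each mouse in turn. After seeing the data, fits without mice 22 and 26 and with the newer quasi-likelihood method of edgeR were added. Some list members that the naming rule covers are not reported here.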

Additional observations from a re-analysis of the deposited data

Results flagged for a closer look

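Among 142 groups of 4 or 5 mice examined for a single value apart from the rest, 5 (3.52%) held one, and chance alone gives such a value in about 1 in 20 groups. In Cre-positive microglia, the cell cycle list mean of mouse 475 was 4.43 log2 CPM, against 3.51 to 3.62 in the other 3 mice. In Cre-negative microglia, mouse 439 had a cytokine and chemokine list mean of 5.28, against 4.83 to 4.93 in the other 4. Mouse 469 was apart in 3 measures: Wdr24 at 32.7 CPM, against 23.6 to 24.9 CPM in the others, a glycolysis and hypoxia list mean of 5.945 log2 CPM, against 6.62 to 6.87, and a border macrophage marker mean of 4.33, against 3.77 to 3.79.

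The libraries of mouse 459 entered no comparison except the alternatives that kept them. The means given next were scaled over all 28 libraries together, unlike the list means above. The one labelled astrocyte had a microglia identity mean of 11.5 log2 CPM, against -0.42 to 2.12 in the other astrocyte libraries, and the one labelled microglia had an astrocyte marker mean of 10.4, against -0.30 to 3.10 in the other microglia libraries.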

How the results depend on the processing

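Zfp868 passed with a log2 fold change of the same sign under all 20 alternatives of the Cre comparison in APPPS1 microglia. The count of genes past the threshold stayed at 1, except for 6 with DESeq2 (3 higher and 3 lower: Zfp868, Mir155hg at an adjusted p of 0.0121, Slc18a1, and lower Loxl3 at 0.0139, Klhl29 and Igkv15-103, the last 2 at 0 in all 4 Cre-positive libraries; Slc18a1, Klhl29 and Igkv15-103 are named after their values were seen, as is Fcna) and for 2 without mouse 443, where Fcna, a ficolin, passed at 1.74 (adjusted p = 0.0391), having 1.37 CPM in that mouse and 7.88 to 9.91 CPM in the other Cre-positive mice. Without single mice the counts ranged from 1 to 2. The interaction, with 0 genes called, had 51 with DESeq2 and 28 without the filter, and from 0 to 107 without single mice (107 without mouse 22, 3 without mouse 469, 3 without mouse 443 and 1 without mouse 759). The cause was not tested.

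Human APOE in astrocytes kept its direction without single mice, at -1.45 to -1.22 on the log2 scale, but 3 against 5 or 4 against 4 mice cannot pass after adjustment over 3 tests. Human APP in microglia, at 0.04, was at -0.38 with mouse 459 kept and at -0.47 to 0.47 without single mice. The correlation of human APOE with the cytokine list was -0.73 with groups centred, and that with astrocyte markers 0.0763 with groups centred and 0.41 without the 2 libraries farthest from the median.

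Of 161 named genes, 101 kept the sign of their fold change under every alternative. Of 31 gene lists, 7 had a median of 1 sign under every alternative, among them the cytokine (0.04 to 0.41), cell cycle (0.02 to 0.53) and antigen presentation (-0.45 to -0.11) lists. The medians of most lists described above changed sign under at least 1 alternative: homeostatic, early and late disease-associated (-0.28 to 0.17), TREM2 signalling, lysosome, interferon, Toll-like receptor, NF-kappaB, lipoprotein, immediate early, mitochondrially encoded and cholesterol synthesis (-0.38 to 0.45). No paired analysis was possible because the groups compared come from different mice, whose numbers are shared only between the 2 sorts of a mouse.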
